A study of Mus musculus with 13 samples.

Results

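Integrins are the receptors by which cells hold the extracellular matrix, and focal adhesions are the protein assemblies that tie them to actin. The 35 genes described here, chosen by name from the 57010 genes listed in each library, comprise 11 integrin alpha subunits, 5 integrin beta subunits, 4 genes for talins, kindlin and vinculin, 4 genes of the complex of integrin-linked kinase (ILK), 6 genes for actin crosslinkers and tensins, and 5 genes for adaptors and kinases. They were measured by RNA-Seq in wild-type (WT) mouse embryonic fibroblasts (MEFs), which are primary cells grown from mid-gestation embryos. Control MEFs were labelled untreated and received vehicle according to the results text of the study. Senescent MEFs had been exposed to 2 μM etoposide, a topoisomerase inhibitor that breaks DNA, for 24 h and then kept for 5 days in normal medium. The other two groups were senescent MEFs that received 100 or 300 μg/mL Fucoidan-FV, a seaweed polysaccharide rich in sulfated fucose, for 12 h. Every group held MEFs of mice 4, 5 and 6 and carried no engineered allele, and control mouse 5 was sequenced in 2 libraries, which gave 13 libraries in all.

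An integrin is a pair of an alpha and a beta subunit that spans the membrane. The pair decides the ligand: integrins with Itga5, Itgav or Itga8 bind proteins with an arginine-glycine-aspartate (RGD) motif such as fibronectin and vitronectin, those with Itga1, Itga2 or Itga11 bind collagens, and those with Itga3, Itga6 or Itga7 bind laminins. Inside the cell, talin and kindlin bind the tail of the beta subunit and switch the integrin on, vinculin, alpha-actinin and filamin connect it to actin, and focal adhesion kinase (Ptk2) with Src, p130Cas (Bcar1) and paxillin passes the signal on. Fibroblasts use these contacts to spread, to pull on the matrix and to remodel it.

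Among the members that passed the test with Fucoidan-FV, the decrease largest in size at each dose was that of Itga5 (ENSMUSG00000000555, chr15:103252713-103275270 of GRCm39, minus strand), the partner of Itgb1 in the main fibronectin receptor of fibroblasts, and the largest increase was that of Itga11 (ENSMUSG00000032243, chr9:62585108-62691617, plus strand), which pairs with the same beta subunit in a receptor for fibrillar collagen. Their promoters are shown because the levels of this pair moved in opposite directions. RefSeq promoter windows, which run from 250 bases before to 50 bases after a start site, were found for 27 of the 35 members, and not for Itga6, Itga7, Itgb3, Tln2, Parva, Lims2, Pxn and Ptk2. The windows of RefSeq are tabled on GRCm38.p6, and both of those shown matched GRCm39 exactly, at 1 place each. Only the bases before the first annotated start are printed, 5′ to 3′ on the strand of the gene, with capitals on matches to GGGCGG, the letters of the Sp1 motif, or to its reverse complement.
Itga5 (chr15:103275271-103275468, minus strand, 198 bases): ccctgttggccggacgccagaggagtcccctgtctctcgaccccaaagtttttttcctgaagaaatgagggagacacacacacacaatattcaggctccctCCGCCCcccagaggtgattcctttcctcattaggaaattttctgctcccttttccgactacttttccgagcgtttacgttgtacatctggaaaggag
Itga11 (chr9:62584887-62585107, plus strand, 221 bases): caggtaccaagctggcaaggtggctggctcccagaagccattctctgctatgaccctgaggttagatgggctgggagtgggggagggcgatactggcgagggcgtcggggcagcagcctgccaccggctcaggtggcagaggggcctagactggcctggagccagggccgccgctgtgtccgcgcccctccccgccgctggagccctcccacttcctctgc
The Itga5 stretch held 1 match to the Sp1 letters, on its minus strand and 149 bases before the RefSeq start, and had a GC content of 51.0%. Another match in the Itga5 window, 6 bases before the RefSeq start, lay in the part not printed. The Itga11 stretch held none and had a GC content of 69.2%. Over both strands of whole windows, GGGCGG occurred in 23 of the 33 windows of these members and in 35.7% of all 32851 windows. TGANTCA (AP-1) occurred in 4 of the 33 and in 7.8% of all windows, GGAATG (TEAD) in 6 and in 14.7%, TATAAA in 1 and in 13.6%, and the CArG box in 2, those of Fermt2 and Vcl, and in 1.6%. None of the matches shown overlapped another motif, and a match to letters does not show that a factor was bound there.

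The libraries summed to 22782536 to 31278750 counts. The p-values of the main test rest on a spread between mice that was estimated over all 4 groups of 3 mice together. The labels do not divide the mice into separate cultures. Because the RNA is from bulk cells, fewer cells of a type and less RNA per cell cannot be told apart. Cdkn1a, the p21 arrest gene that is raised in senescent cells, was at 468 ± 83.2 CPM (counts scaled to library size with TMM factors, mean ± SD, n = 3) in control MEFs and at 1652 ± 187 CPM in senescent MEFs. The 8 fibroblast markers summed to 10130 to 15590 CPM over all mice. Within this sum Vim was lower, and Col1a2, Pdgfra, Dcn and Lum higher, in every treated mouse than in every senescent mouse. Col1a1 and Thy1 overlapped at both doses and Pdgfrb at 100 μg/mL. Thus 5 of the 8 did not overlap at 100 μg/mL (26.2% of all genes) and 6 at 300 μg/mL (19.6%). The epithelial markers summed to at most 2.04 CPM. Leukocyte markers summed to 3.67 to 20.1 CPM. Endothelial markers summed to at most 3.30 CPM in control and senescent MEFs and to 5.23 to 11.7 CPM with Fucoidan-FV, where Tek was the only one of the 5 at or above a mean of 1 CPM. Smooth muscle markers summed to 6101 to 10150 CPM in senescent MEFs and to 3481 to 5141 CPM with either dose of Fucoidan-FV, with Acta2, Tagln and Cnn1 lower in every treated mouse than in every senescent mouse and Myh11 overlapping. Skeletal muscle markers summed to 67.8 to 359 CPM and neural and crest markers to 32.5 to 77.8 CPM, and their part in the results, like that of the smooth muscle and fibroblast markers, was not tested. Senescent mouse 6 stood apart from its group for several members: its correlation with the other senescent mice over all genes tested was 0.935 and 0.957, and it was low for Itga1, Itga8, Itgav, Vcl and Tns3.

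Of the 35 members, 34 had enough counts to be tested, and Itgb7, a beta subunit of lymphocyte integrins, did not, with 0 to 21 counts per mouse. In senescent against control MEFs 7 of the 34 passed the test (adjusted p under 0.05, edgeR's quasi-likelihood test over 15034 genes), where 11.7% of all genes passed. Of these 5 were higher (6.11% of all genes) and 2 lower (5.63%). With 100 μg/mL against no Fucoidan-FV in senescent MEFs 8 of 34 passed, beside 4.02% of all genes, 3 of them higher (1.14%) and 5 lower (2.89%). With 300 μg/mL 5 of 34 passed, beside 1.9% of all genes, 3 higher (0.778%) and 2 lower (1.12%). A log2 fold change over 1 in size besides, the threshold of the study, left 6 members in senescent MEFs (8.42% of all genes), 3 with 100 μg/mL (2.69%) and 4 with 300 μg/mL (1.64%). All 3 comparisons share the senescent libraries, so they are not independent of each other. The members were also chosen with earlier results of these data known. Their shares beside those of all genes, here and below, are therefore descriptions and not a test of the list. The median log2 fold change of the 34 was −0.10 in senescent MEFs, −0.28 with 100 μg/mL and −0.17 with 300 μg/mL, where the median over all genes was 0.07, −0.02 and 0.00. In 13 of the 34 the mice of the 100 μg/mL group did not overlap the senescent mice (26.2% of all genes), and in 12 of the 34 those of the 300 μg/mL group did not (19.6%). In a fit of only the 2 groups compared, Itga7, Itga11 and Itgb5 passed in senescent MEFs and Itga5 and Itga11 passed at each dose, 3, 2 and 2 members. Of all genes, 730, 167 and 103 passed in these fits, against 1765, 605 and 286 in the main fit. With the mouse number as a block, Itga3, Itgb3 and Lims2 no longer passed in senescent MEFs, which left 4, beside 1522 of all genes.

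**Figure D1:**
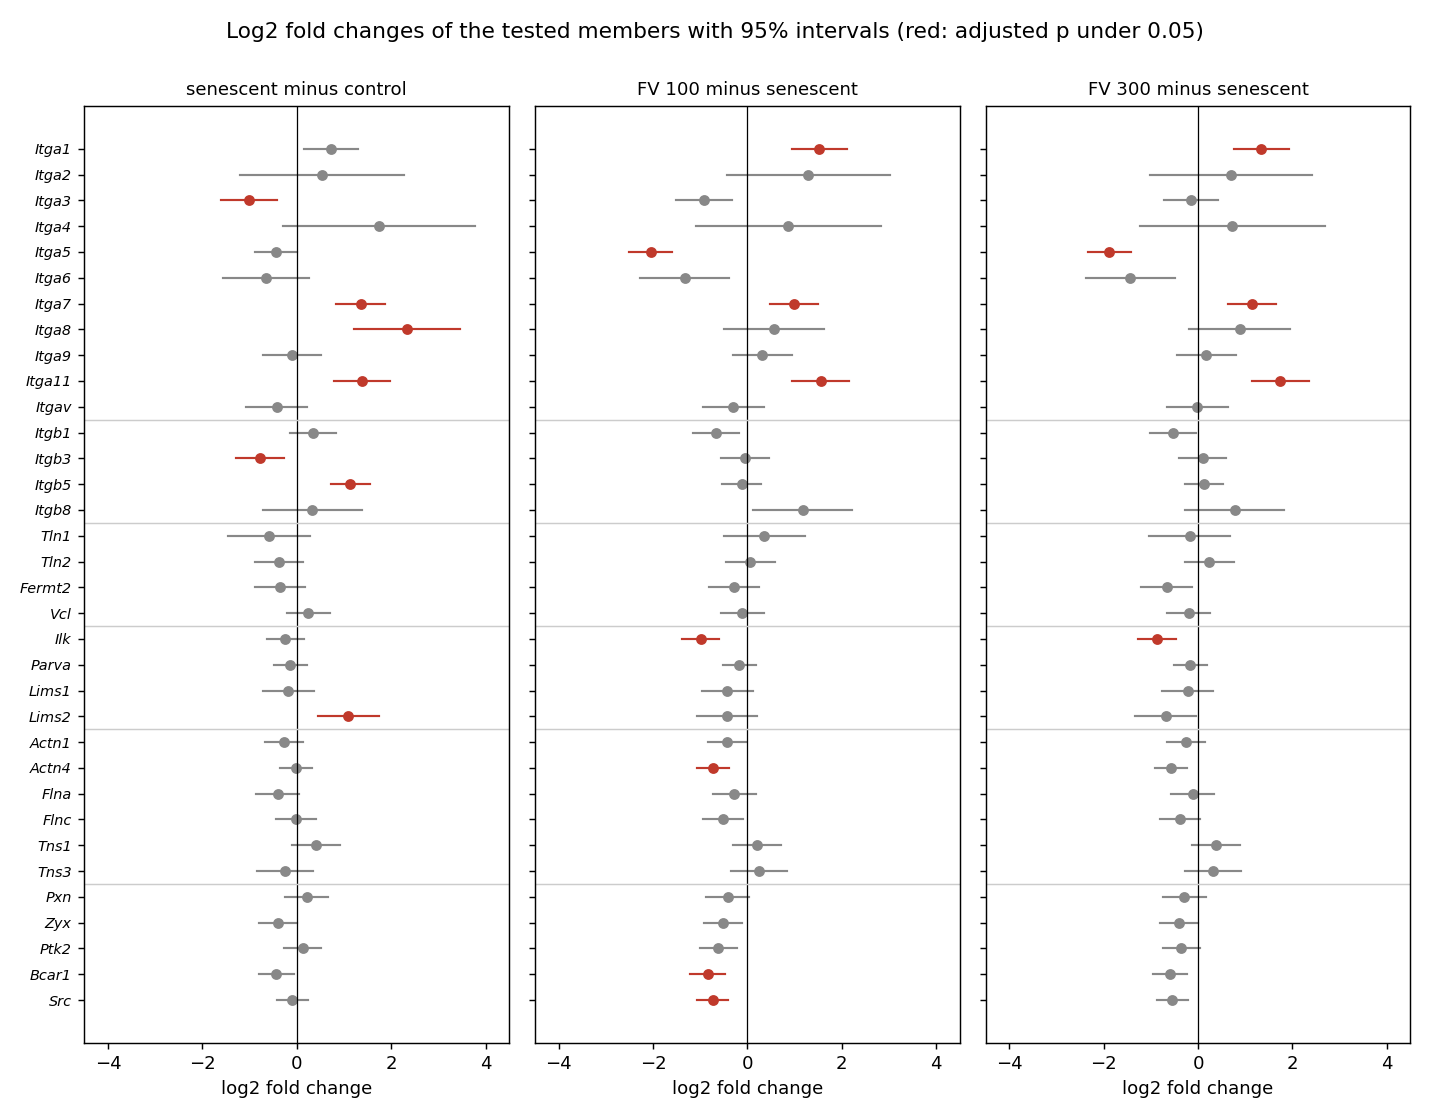
Log2 fold changes (x axis) of the 34 tested members (y axis, gray lines between the role groups) in senescent minus control, 100 μg/mL Fucoidan-FV (FV 100) minus senescent and 300 μg/mL Fucoidan-FV (FV 300) minus senescent MEFs, with bars for the 95% interval and red for an adjusted p under 0.05. Itga5 lies at −2.05 and −1.88 and Itga11 at 1.56 and 1.74 with the 100 and 300 μg/mL doses, while the talin, kindlin and vinculin genes have no red point.

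Among the subunits that bind RGD ligands, Itga5 fell with Fucoidan-FV and Itgav did not pass the test in any of these 3 comparisons. Itga5 was at 2001, 2275 and 2989 CPM in control mice 4, 5 and 6 and at 1429, 1765 and 2164 CPM in the same order in senescent MEFs. Under 100 μg/mL Fucoidan-FV the levels were 417, 470.4 and 405 CPM, and under 300 μg/mL they were 506, 539 and 408 CPM. Every treated mouse was thus below the lowest senescent mouse, and control and senescent mice overlapped. The decrease was 4.15-fold at 100 μg/mL (log2 fold change −2.05, SE 0.21, adjusted p = 0.000442) and 3.69-fold at 300 μg/mL (log2 fold change −1.88, SE 0.21, adjusted p = 0.000955), in 3 of 3 mice at each dose. Both passed under all 18 alternatives, with an adjusted p of 1.17e-13 to 0.0105 at 100 μg/mL and 2.87e-12 to 0.0124 at 300 μg/mL. In senescent against control MEFs the log2 fold change of Itga5 was −0.44 (adjusted p = 0.200).

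Itgav, which pairs with Itgb3 and Itgb5 in vitronectin receptors, was at 584, 581 and 858 CPM in control mice 4, 5 and 6, at 560.5, 695 and 257 CPM in senescent mice, at 384, 362 and 485 CPM with 100 μg/mL and at 592, 448 and 454 CPM with 300 μg/mL. The groups overlapped and senescent mouse 6 was the lowest of the 12. The log2 fold changes were −0.42 in senescent MEFs, −0.30 with 100 μg/mL and −0.02 with 300 μg/mL, with adjusted p of 0.433, 0.644 and 0.991. Itga8, a receptor subunit for nephronectin and fibronectin, was at 13.8, 10.9 and 11.5 CPM in control and 77.5, 91.4 and 13.3 CPM in senescent mice. Senescent mice 4 and 5 were far above the controls and senescent mouse 6 was among them, so the groups overlapped. The increase was 5.04-fold (log2 fold change 2.33, SE 0.52, adjusted p = 0.0112), and its adjusted p was 0.0590 without control mouse 5, 0.0507 without senescent mouse 4 and 0.0504 without senescent mouse 5, over a range of 1.46e-09 to 0.0997 in the 18 alternatives. With Fucoidan-FV Itga8 was at 99.6, 110.4 and 59.5 CPM and 142, 116 and 77.4 CPM for 100 and 300 μg/mL, higher in 3 of 3 mice at each dose than in the same senescent mouse, but the differences of 0.56 and 0.88 on the log2 scale did not pass (adjusted p = 0.580 and 0.444).

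The collagen-binding subunits Itga11 and Itga1 rose with Fucoidan-FV. Itga11 was at 116, 158 and 116 CPM in control mice 4, 5 and 6 and at 435, 356 and 229 CPM in senescent mice. It was at 869.9, 772 and 1359.6 CPM with 100 μg/mL and at 1141, 895 and 1373 CPM with 300 μg/mL. The 3 ranges did not overlap: every senescent mouse was above every control mouse, and every treated mouse above every senescent mouse. Itga11 rose 2.61-fold in senescent MEFs (log2 fold change 1.39, SE 0.28, adjusted p = 0.00582), by a further 2.94-fold with 100 μg/mL (log2 fold change 1.56, SE 0.28, adjusted p = 0.00956) and 3.34-fold with 300 μg/mL (log2 fold change 1.74, SE 0.28, adjusted p = 0.00931). The first pair passed under all 18 alternatives, and the last had an adjusted p of 0.0559 without 300 μg/mL mouse 6, over a range of 1.26e-09 to 0.0559. The pair of libraries of control mouse 5 differed by 2.00-fold for Itga11, at 101 and 203 CPM before TMM scaling.

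Itga1, which binds collagen IV and other collagens, was at 16.7, 17.7 and 22.0 CPM in control and 32.4, 42.1 and 18.7 CPM in senescent mice. It was at 77.8, 91.1 and 99.7 CPM with 100 μg/mL and 66.7, 93.8 and 74.7 CPM with 300 μg/mL. All treated mice were above all senescent mice, and senescent mouse 6 lay among the controls. The increases were 2.88-fold (log2 fold change 1.53, SE 0.27, adjusted p = 0.00954) and 2.52-fold (log2 fold change 1.34, SE 0.27, adjusted p = 0.0254). At 300 μg/mL the adjusted p was 0.0502 without senescent mouse 4, 0.0971 without 300 μg/mL mouse 5 and 0.0950 without 300 μg/mL mouse 6, over a range of 0.000176 to 0.162. In 84.0% of its exonic bases Itga1 belongs to a single transcript, and the libraries differed in genes with a share of 75 to 95%. The median of these genes, as log2 CPM minus the mean of all libraries, was 0.08, −0.48 and 0.0024 in senescent mice 4, 5 and 6, 0.63, 0.69 and −0.16 with 100 μg/mL and −0.48, 0.33 and 0.07 with 300 μg/mL. In the pair of libraries of control mouse 5 it was −0.61 and 0.38, and Itga1 was 1.88-fold higher in the library labelled 5(2). With offsets for that share the adjusted p of Itga1 was 0.125 at 100 μg/mL, over a range of 4.80e-06 to 0.183, and 0.123 at 300 μg/mL. Itga2, the remaining collagen-binding subunit among the members, stayed between 0.259 and 1.74 CPM in all mice and passed in none of these comparisons.

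**Figure D2:**
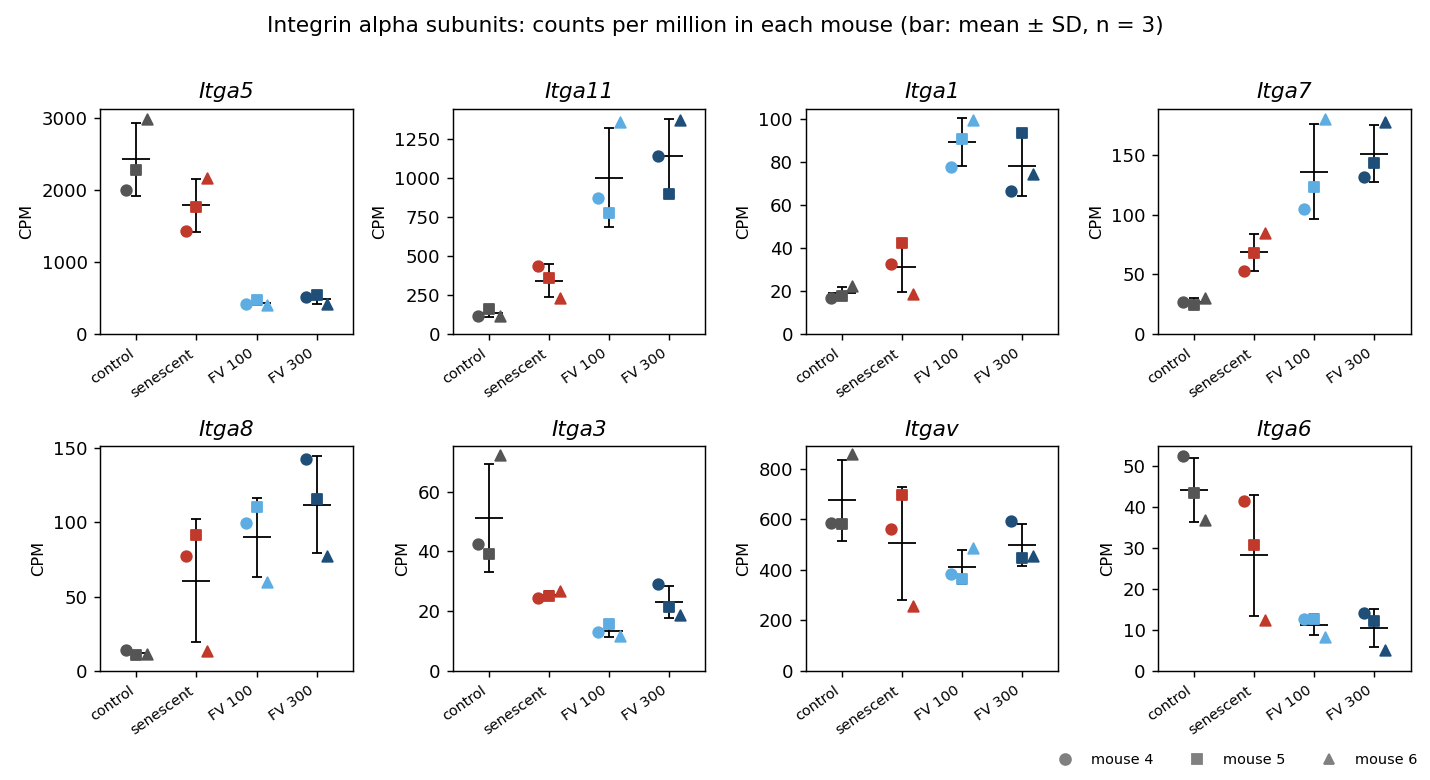
CPM (y axes, from 0) of 8 integrin alpha subunits in control, senescent, 100 μg/mL Fucoidan-FV (FV 100) and 300 μg/mL Fucoidan-FV (FV 300) MEFs, with 1 symbol for each mouse (circle 4, square 5, triangle 6) and bars for the mean ± SD of 3 mice. Itga5 falls from 1786 ± 368 CPM in senescent MEFs to 431 ± 34.9 CPM with 100 μg/mL, and Itga11 goes from 340.0 ± 104 to 1001 ± 315 CPM.

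Of the laminin-binding subunits, Itga7 rose and Itga3 fell in senescent MEFs, and Itga7 rose further with Fucoidan-FV. Itga7, the laminin receptor subunit of muscle that vascular and stromal cells also express, was at 26.5, 23.9 and 29.7 CPM in control mice 4, 5 and 6 and 53.0, 67.5 and 84.7 CPM in senescent mice. With Fucoidan-FV it was at 105, 123 and 181 CPM for 100 μg/mL and 132, 144 and 178 CPM for 300 μg/mL. None of the treated mice overlapped the senescent mice, and none of these the controls. Itga7 rose 2.56-fold in senescent MEFs (log2 fold change 1.36, SE 0.24, adjusted p = 0.00265), which passed under all 18 alternatives. With 100 μg/mL it rose 1.99-fold (log2 fold change 0.99, SE 0.24, adjusted p = 0.0378), with an adjusted p of 0.0509 without 100 μg/mL mouse 4, 0.0858 without 100 μg/mL mouse 5 and 0.109 without 100 μg/mL mouse 6 and a range of 0.00117 to 0.213. With 300 μg/mL it rose 2.21-fold (log2 fold change 1.15, SE 0.24, adjusted p = 0.0269), with an adjusted p of 0.0714 without 300 μg/mL mouse 5 and 0.153 without 300 μg/mL mouse 6 and a range of 0.000391 to 0.186. The highest adjusted p at either dose came from TPM centred on the median gene. Of the 6 skeletal muscle markers, Myod1, Myog, Myh3 and Pax7 were under a mean of 1 CPM in every group. Des was at 21.9 to 74.3 CPM in control, 72.5 to 267 CPM in senescent, 78.0 to 96.8 CPM in 100 μg/mL and 37.0 to 76.1 CPM in 300 μg/mL mice, and Acta1 at 81.7 to 121 CPM, 74.1 to 92.7 CPM, 13.6 to 51.3 CPM and 18.0 to 42.8 CPM in the same order. Their part in the values of Itga7 was not tested.

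Itga3, a receptor subunit for laminin-332 and laminin-511 in many epithelia, was at 42.5, 39.1 and 72.2 CPM in control and 24.5, 25.0 and 26.9 CPM in senescent mice, without overlap. It fell 2.01-fold (log2 fold change −1.01, SE 0.27, adjusted p = 0.0286), with an adjusted p of 0.0543 with the mouse block, 0.111 without control mouse 6, 0.0867 without senescent mouse 4 and 0.0795 without senescent mouse 5 and a range of 0.00571 to 0.111. It was at 12.9, 15.8 and 11.8 CPM with 100 μg/mL and 29.0, 21.4 and 18.6 CPM with 300 μg/mL. The lower dose lay below all senescent mice without passing (log2 fold change −0.92, adjusted p = 0.0749), and the higher dose overlapped them (−0.15, adjusted p = 0.864). Itga6 was at 28.2 ± 14.7 CPM in senescent MEFs, 11.2 ± 2.56 CPM with 100 μg/mL and 10.5 ± 4.75 CPM with 300 μg/mL, with log2 fold changes of −1.33 and −1.43 that did not pass (adjusted p = 0.104 and 0.119). Each treated mouse was lower for Itga6 than the senescent mouse of the same number. With the mouse number as a block Itga6 passed at 300 μg/mL and not at 100 μg/mL. Itga9 and Itga4, receptor subunits for tenascin and for VCAM-1 among other ligands, passed in none of these comparisons, with Itga9 at 13.3 to 23.9 CPM and Itga4 at 0 to 4.33 CPM over all mice.

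Levels of different genes can be set side by side in TPM, the transcript abundance of RSEM, which is per length. The sums and shares below cover the 11 alpha subunits among the members and leave out Itga10, which also binds collagen. Together the alpha subunits summed to 981 ± 176 TPM in control, 882 ± 55.1 TPM in senescent, 884 ± 44.4 TPM in 100 μg/mL and 929 ± 42.5 TPM in 300 μg/mL MEFs (SD, n = 3). Over all mice the sum ran from 821 to 1182 TPM, and its makeup differed between groups. Itga5 took 74.9 ± 0.865% of alpha subunit TPM in control, 63.5 ± 8.53% in senescent, 21.0 ± 4.59% in 100 μg/mL and 20.3 ± 3.88% in 300 μg/mL MEFs. Itga11 took 4.31 ± 1.304%, 12.5 ± 5.09%, 47.6 ± 6.99% and 47.9 ± 7.16% in the same order. Within each mouse Itga5 was the more abundant of the pair in all control and senescent MEFs, by 3.20 to 25.2 times, and Itga11 was the more abundant in all 6 treated samples, where the ratio of Itga5 to Itga11 was 0.291 to 0.605. By ligand, the RGD-binding subunits went from 79.9 ± 5.27% in senescent to 38.7 ± 7.17% and 39.3 ± 7.17% with 100 and 300 μg/mL. The collagen-binding subunits went from 13.5 ± 5.54% to 51.1 ± 7.09% and 50.7 ± 6.64%, and the laminin-binding subunits from 5.05 ± 0.679% to 8.17 ± 0.711% and 8.16 ± 0.590%. The share of Itgav was 14.5 ± 2.19%, 14.0 ± 1.27% and 14.8 ± 2.36%, and the drop in the RGD-binding share was in Itga5. These shares are descriptions, since an exact permutation test of 3 mice against 3 cannot give a two-sided p under 0.1, and the shares of 1 sample are tied to each other because they sum to the whole.

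**Figure D3:**
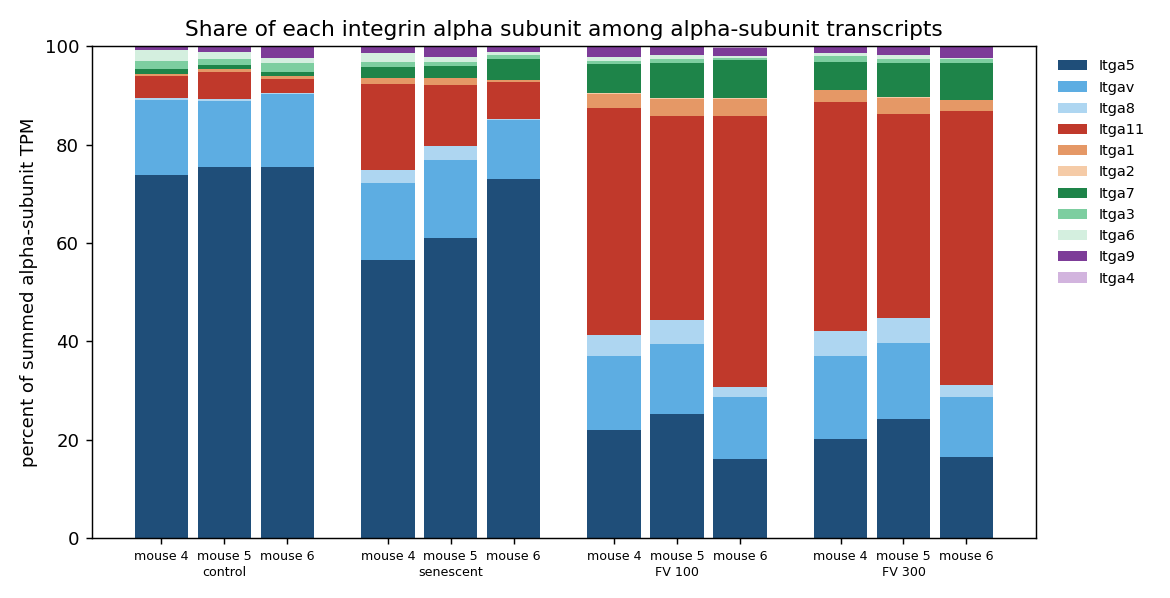
Share of each of the 11 alpha subunits in the summed alpha subunit TPM (y axis, percent) for each mouse of control, senescent, 100 μg/mL (FV 100) and 300 μg/mL (FV 300) Fucoidan-FV MEFs, with blue for RGD-binding, red and orange for collagen-binding, green for laminin-binding and purple for the other subunits. Itga5 (dark blue) takes 56.4% to 75.4% of the bar in control and senescent mice and 16.1% to 25.1% in treated mice.

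Of the 4 beta subunits tested, 2 passed between senescent and control MEFs (11.7% of all genes), Itgb5 higher and Itgb3 lower. With 100 and 300 μg/mL Fucoidan-FV 0 passed (4.02% and 1.9% of all genes). Itgb5, which pairs with Itgav, was at 408, 434 and 508 CPM in control mice 4, 5 and 6, 900.3, 952 and 1121 CPM in senescent mice, 809.5, 780.2 and 1139 CPM with 100 μg/mL and 1142, 952 and 1137 CPM with 300 μg/mL. All senescent and treated mice were above all controls. Itgb5 rose 2.20-fold in senescent MEFs (log2 fold change 1.14, SE 0.19, adjusted p = 0.00181), under all 18 alternatives. Itgb3, the other of these partners of Itgav, was at 84.5, 93.1 and 123 CPM in control and 60.8, 73.9 and 40.3 CPM in senescent mice, without overlap, and fell 1.72-fold (log2 fold change −0.78, SE 0.23, adjusted p = 0.0459). Its adjusted p was 0.0628 with the mouse block, 0.0611 without control mouse 4, 0.0865 without control mouse 5, 0.161 without control mouse 6, 0.0957 without senescent mouse 4 and 0.0879 without senescent mouse 6, over a range of 0.0218 to 0.176. With Fucoidan-FV Itgb3 was at 50.3, 59.6 and 58.8 CPM and 53.4, 70.2 and 63.8 CPM, which overlapped the senescent mice. Itgb1, the common beta subunit of the fibronectin, collagen and laminin receptors, was at 2585, 2784 and 3960.0 CPM in control and 4107, 4805 and 2888 CPM in senescent mice, at 2271, 2315 and 2852 CPM with 100 μg/mL and at 3073, 2590.2 and 2557 CPM with 300 μg/mL. It was lower in 3 of 3 treated mice at each dose than in the same senescent mouse, with log2 fold changes of −0.67 and −0.52 that did not pass (adjusted p = 0.119 and 0.286). In TPM, Itgb1 made up 84.6 ± 1.80% of the beta subunits in control, 76.3 ± 8.08% in senescent, 70.9 ± 0.934% in 100 μg/mL and 69.7 ± 2.28% in 300 μg/mL MEFs, and Itgb5 13.8 ± 1.71%, 23.0 ± 8.14%, 28.1 ± 1.05% and 29.3 ± 2.27%. Itgb8, an activator of latent TGF-beta when paired with Itgav, was at 2.79 ± 1.22 CPM in senescent MEFs and at 6.28 ± 0.294 and 4.78 ± 0.890 CPM with 100 and 300 μg/mL, without overlap and without passing (adjusted p = 0.203 and 0.506).

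None of the talin, kindlin and vinculin genes passed in these 3 comparisons, 0 of 4 in each (11.7%, 4.02% and 1.9% of all genes). Tln1, the main talin of fibroblasts, was at 478, 432 and 167 CPM in control mice 4, 5 and 6, 296, 188 and 235 CPM in senescent mice, 361, 379 and 180.2 CPM with 100 μg/mL and 131, 307 and 197 CPM with 300 μg/mL. The groups overlapped and the spread within them was wide. The log2 fold changes of Tln1 were −0.59, 0.36 and −0.18 in senescent, 100 and 300 μg/mL MEFs (adjusted p = 0.408, 0.682 and 0.895). Tln1 was also 3.62-fold higher in library 5(2) than in library 5(1) of control mouse 5, and 76.5% of its exonic bases belong to a single transcript. Vcl, which encodes vinculin, was at 801, 880.2 and 818 CPM in control, 1087, 1249 and 632 CPM in senescent, 913, 958 and 885 CPM in 100 μg/mL and 840.0, 927 and 815 CPM in 300 μg/mL mice. Senescent mice 4 and 5 were the highest and senescent mouse 6 the lowest of the 12. Vcl passed in senescent against control MEFs without senescent mouse 6, along with Itga1, Tns1, Zyx and Bcar1. That fit called 10 members, of which 5 were among the 7 called with all mice. It called 2712 of all genes, against 1765 with all mice. Of the exonic bases of Vcl, 25.4% overlap a gene on the opposite strand, Ap3m1. Tln2 and Fermt2 (kindlin-2) had log2 fold changes between −0.67 and 0.24 in these comparisons.

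In the ILK complex, which links beta subunit tails to actin, Ilk fell with Fucoidan-FV and Lims2 rose in senescent MEFs. Ilk, the scaffold of the complex, was at 588, 686 and 713 CPM in control mice 4, 5 and 6 and 428, 576 and 679.6 CPM in senescent mice. It was at 267, 259.9 and 319.5 CPM with 100 μg/mL and 311, 293 and 318 CPM with 300 μg/mL. All treated mice were below all senescent mice, and control and senescent mice overlapped. The decrease was 1.99-fold (log2 fold change −0.99, SE 0.19, adjusted p = 0.0119) and 1.83-fold (log2 fold change −0.87, SE 0.19, adjusted p = 0.0299). At 100 μg/mL the adjusted p was 0.0662 without 100 μg/mL mouse 4 and 0.0651 without 100 μg/mL mouse 5, over a range of 0.000322 to 0.0960, and at 300 μg/mL it was 0.0538 without senescent mouse 5, 0.0865 without 300 μg/mL mouse 4, 0.117 without 300 μg/mL mouse 5 and 0.136 without 300 μg/mL mouse 6, over a range of 0.00113 to 0.136. Of the exonic bases of Ilk, 89.9% overlap Rrp8 or Taf10 on the opposite strand, and whether the counting used strand is not given in the sources used here. Rrp8 had log2 fold changes of −0.83 (adjusted p = 0.0382) and −0.53 (adjusted p = 0.204) at 100 and 300 μg/mL, Taf10 did not pass, and the part of either in the values of Ilk was not tested.

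Lims2 (PINCH-2), an adaptor of the same complex, was at 24.3, 26.4 and 24.7 CPM in control and 32.9, 44.2 and 83.9 CPM in senescent mice, without overlap, and senescent mouse 6 was the highest. It rose 2.13-fold (log2 fold change 1.09, SE 0.30, adjusted p = 0.0311), with an adjusted p of 0.0572 with the mouse block, 0.111 without control mouse 4, 0.0935 without control mouse 5, 0.0832 without control mouse 6 and 0.104 without senescent mouse 6 and a range of 0.00686 to 0.125. With Fucoidan-FV it was at 42.4, 45.4 and 32.0 CPM and 31.1, 38.4 and 30.6 CPM for 100 and 300 μg/mL and did not pass. Lims1 (PINCH-1) and Parva (alpha-parvin) passed in none of the 3 comparisons, with log2 fold changes between −0.43 and −0.14, and all 4 genes of the complex had negative values at both doses.

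Of the actin crosslinkers and tensins, Actn4 fell with 100 μg/mL, 1 of 6, where 2.89% of all genes passed as lower. Actn4, the alpha-actinin-4 that bundles actin at adhesions, was at 2089, 2070.4 and 1795 CPM in control mice 4, 5 and 6, 1877, 2051 and 1970.2 CPM in senescent mice, 1158, 1121 and 1305 CPM with 100 μg/mL and 1474, 1299.7 and 1199 CPM with 300 μg/mL. All treated mice were below all control and senescent mice. The decrease was 1.65-fold at 100 μg/mL (log2 fold change −0.72, SE 0.16, adjusted p = 0.0248), and the log2 fold change of −0.57 at 300 μg/mL did not pass (adjusted p = 0.0881). At 100 μg/mL the adjusted p was 0.0522 without senescent mouse 4, 0.0732 without senescent mouse 5, 0.122 without 100 μg/mL mouse 4 and 0.126 without 100 μg/mL mouse 5, over a range of 0.000209 to 0.339. Actn1, Flna and Flnc, which encode alpha-actinin-1 and filamins A and C, had log2 fold changes of −0.43, −0.28 and −0.52 at 100 μg/mL and −0.25, −0.11 and −0.39 at 300 μg/mL, and did not pass. The tensins Tns1 and Tns3, which carry integrins into fibrillar adhesions, had 0.20 and 0.25 at 100 μg/mL and 0.39 and 0.31 at 300 μg/mL, and did not pass either.

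Among the adaptors and kinases, Bcar1 and Src fell with 100 μg/mL, 2 of 5, where 2.89% of all genes passed as lower. All 5 log2 fold changes were negative at both doses, with a median of −0.62 at 100 μg/mL and −0.40 at 300 μg/mL. Bcar1, the p130Cas scaffold that Src phosphorylates, was at 281, 306 and 368 CPM in control mice 4, 5 and 6, 206, 239 and 262 CPM in senescent mice, 118, 126 and 149 CPM with 100 μg/mL and 169.6, 143 and 155 CPM with 300 μg/mL. The treated, senescent and control ranges did not overlap. Bcar1 fell 1.79-fold at 100 μg/mL (log2 fold change −0.84, SE 0.17, adjusted p = 0.0176), and its log2 fold change of −0.60 at 300 μg/mL did not pass (adjusted p = 0.1002). At 100 μg/mL the adjusted p was 0.0560 without senescent mouse 5, 0.104 without 100 μg/mL mouse 4 and 0.0867 without 100 μg/mL mouse 5, over a range of 0.00212 to 0.109.

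Src, the tyrosine kinase that focal adhesion kinase recruits, was at 197, 199 and 195 CPM in control, 169, 182 and 202 CPM in senescent, 102, 107 and 121 CPM in 100 μg/mL and 141, 125 and 114 CPM in 300 μg/mL mice. All treated mice were below all senescent mice. It fell 1.67-fold at 100 μg/mL (log2 fold change −0.74, SE 0.15, adjusted p = 0.0196), with an adjusted p of 0.0571 without senescent mouse 5, 0.114 without 100 μg/mL mouse 4 and 0.0953 without 100 μg/mL mouse 5 and a range of 0.000574 to 0.217, and had −0.54 at 300 μg/mL (adjusted p = 0.0936). Ptk2, the focal adhesion kinase itself, was at 162, 180.1 and 235 CPM in control, 186, 217 and 228 CPM in senescent, 124, 129 and 159 CPM in 100 μg/mL and 164, 149 and 181 CPM in 300 μg/mL mice. The treated mice were below the senescent mice at both doses, but the log2 fold changes of −0.62 and −0.35 did not pass (adjusted p = 0.0770 and 0.396). Pxn (paxillin) and Zyx (zyxin), LIM adaptors of adhesions, had −0.41 and −0.51 at 100 μg/mL and −0.30 and −0.40 at 300 μg/mL, and did not pass.

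**Figure D4:**
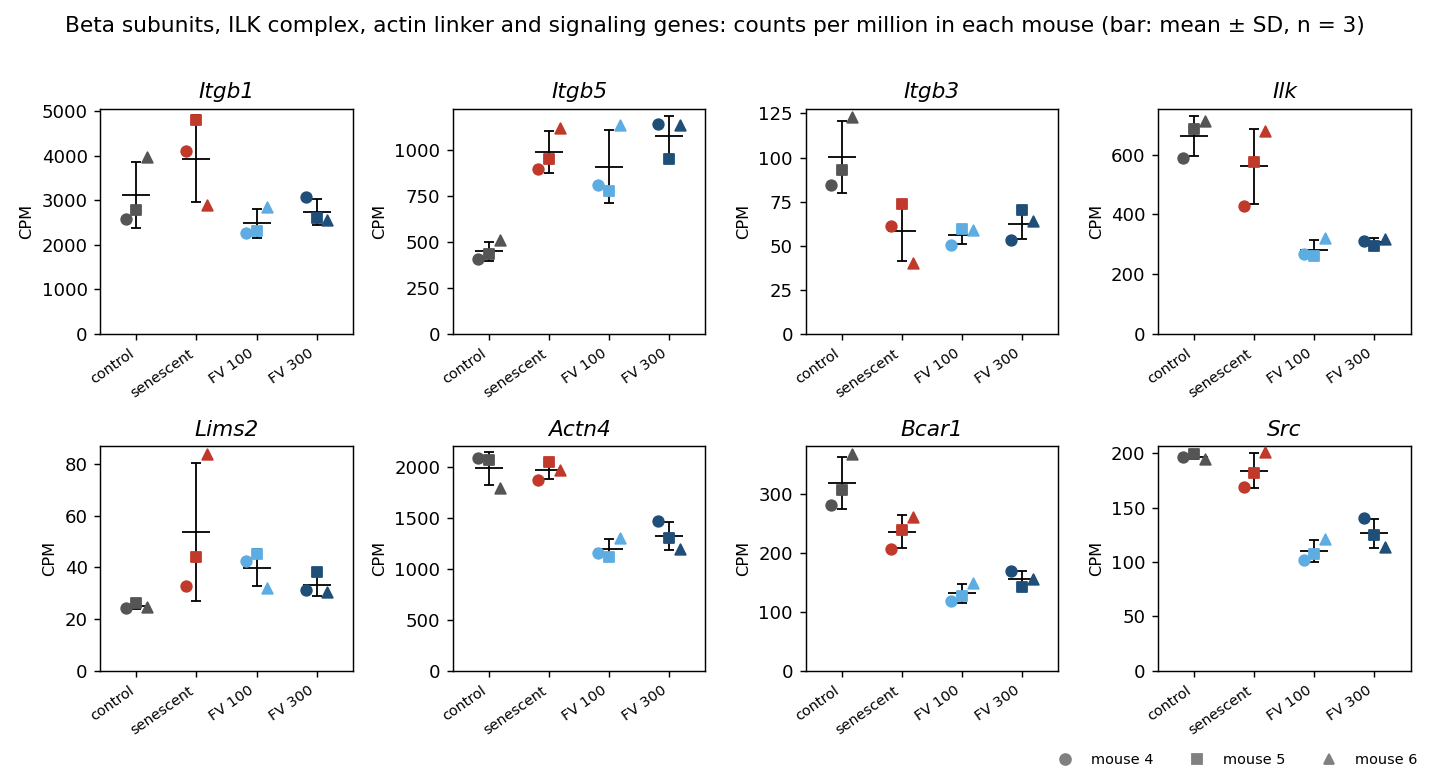
CPM (y axes, from 0) of 3 beta subunits, 2 genes of the ILK complex, an actin crosslinker, an adaptor and a kinase in control, senescent, 100 μg/mL (FV 100) and 300 μg/mL (FV 300) Fucoidan-FV MEFs, with 1 symbol for each mouse (circle 4, square 5, triangle 6) and bars for the mean ± SD of 3 mice. Itgb5 steps up from 450.1 ± 52.2 to 991 ± 115 CPM between control and senescent MEFs, and Ilk steps down from 561 ± 126 to 282 ± 32.6 CPM with 100 μg/mL.

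The size of these decreases depends on the scale. The TMM factors set the median gene near 0, whereas in the deposited TPM the median log2 difference over all genes tested was 0.342 at 100 μg/mL and 0.26 at 300 μg/mL against senescent MEFs. On log2(TPM + 0.5), limma's test called Itga1, Itga5, Itga7, Itga11 and Ilk at both doses, and Actn4, Bcar1 and Src did not pass at 100 μg/mL (adjusted p = 0.339, 0.104 and 0.217). With each sample's median gene set to 0, the same test called Itga1, Itga5, Itga11, Ilk, Actn4, Flna, Bcar1 and Src at 100 μg/mL and Itga5, Itga11, Ilk, Actn4, Bcar1 and Src at 300 μg/mL. None of the called members changed sign on the deposited TPM scale, while 6 and 8 of all 34 did at 100 and 300 μg/mL. The median of the 34 members in TPM was 0.0502 and 0.116 at these doses, below the median of all genes.

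No member passed between the doses. Against 100 μg/mL, 0 of 34 members passed with 300 μg/mL (0.00665% of all genes), 1 had an unadjusted p under 0.05 (0.625% of all genes), and DESeq2 also called 0. That member was Itga3, with a log2 fold change of 0.77 (95% interval 0.18 to 1.35, adjusted p = 0.970). The intervals of the difference were −0.27 to 0.61 for Itga5, −0.41 to 0.77 for Itga11, −0.76 to 0.38 for Itga1, −0.35 to 0.66 for Itga7 and −0.27 to 0.52 for Ilk on the log2 scale, which do not show that the doses acted alike.

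Set against control MEFs, 17 of 34 members passed with 100 μg/mL (26.6% of all genes), 6 higher (12.2%) and 11 lower (14.4%). With 300 μg/mL 16 passed (24.4% of all genes), 6 higher (12.4%) and 10 lower (12%). Of these 11 of 34 were also over 1 in log2 fold change at each dose (19.7% and 18% of all genes). Both comparisons share their control libraries, and the treated MEFs differ from these by etoposide as well as by Fucoidan-FV. Itga5 was 5.62-fold and 5.00-fold lower than in control MEFs (adjusted p = 8.90e-06 and 1.42e-05 for 100 and 300 μg/mL). Itga11 was 7.69-fold and 8.73-fold higher (adjusted p = 2.12e-05 and 1.67e-05), Itga8 7.45-fold and 9.28-fold higher (adjusted p = 0.00149 and 0.000873). Itga6, which passed in none of the comparisons above in the main fit, was 3.95-fold and 4.23-fold lower (adjusted p = 0.00499 and 0.00409). Zyx was 1.88-fold and 1.74-fold lower (adjusted p = 0.00344 and 0.00810).

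Among 86 other genes of adhesion, of which 85 were tested, 11 were higher and 3 lower in senescent MEFs, 0 higher and 5 lower with 100 μg/mL, and 0 higher and 4 lower with 300 μg/mL. The shares that passed were 16.5%, 5.88% and 4.71% in this order, beside 11.7%, 4.02% and 1.9% of all genes. In senescent MEFs Efs, an adaptor of the p130Cas family, rose 4.76-fold (from 8.88 ± 2.29 to 42.4 ± 4.12 CPM, adjusted p = 7.24e-05), and Itga10, another collagen-binding subunit, rose 3.77-fold from a low level (from 1.09 ± 0.346 to 4.15 ± 1.93 CPM, adjusted p = 0.0179). Ptk2b (Pyk2), the relative of focal adhesion kinase, rose 2.62-fold (from 41.0 ± 12.04 to 107 ± 33.1 CPM, adjusted p = 0.00406). The Cas-binding Bcar3 fell 2.50-fold (adjusted p = 0.0290), the actin regulator Evl 1.71-fold (adjusted p = 0.0488) and the LIM protein Ajuba 1.53-fold (adjusted p = 0.0263). With Fucoidan-FV the largest decreases of this list at each dose, against the same senescent libraries, were those of Cav1, Fhl3 and Tes. Cav1, the main protein of caveolae, fell 3.01-fold with 100 μg/mL (from 1511 ± 415 to 502 ± 133 CPM, adjusted p = 0.0174) and 2.57-fold with 300 μg/mL (adjusted p = 0.0488). The LIM protein Fhl3 fell 2.84-fold and 2.80-fold (adjusted p = 0.00792 and 0.0103). Tes (testin), a LIM protein of focal adhesions, fell 2.18-fold and 1.97-fold (adjusted p = 0.00680 and 0.0153).

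Of 35 integrin ligands, 32 were tested, and 2 were higher and 3 lower in senescent MEFs, 3 higher and 2 lower with 100 μg/mL, and 1 higher and 1 lower with 300 μg/mL. The shares that passed were 15.6%, 15.6% and 6.25% in this order, beside 11.7%, 4.02% and 1.9% of all genes. In senescent MEFs Spp1 (osteopontin), an RGD ligand, rose 3.29-fold (from 384 ± 95.1 to 1263 ± 170.5 CPM, adjusted p = 0.00129) and Edil3, another, rose 2.79-fold (adjusted p = 0.0161). Fbn1 (fibrillin-1) fell 2.08-fold, Lamc1, a laminin chain, 1.67-fold and Col1a2, a collagen I chain, 1.57-fold (adjusted p = 0.0368, 0.0153 and 0.0338). With Fucoidan-FV Npnt (nephronectin), the ligand of Itga8, fell 4.39-fold at 100 μg/mL (from 119.7 ± 38.9 to 27.3 ± 4.97 CPM, adjusted p = 0.00410) and 3.53-fold at 300 μg/mL (adjusted p = 0.0103). Col3a1, a fibrillar collagen, rose 2.60-fold (from 873 ± 41.9 to 2271 ± 439 CPM, adjusted p = 0.0164) and 2.25-fold (adjusted p = 0.0489). At 100 μg/mL the matrix protein Thbs2 rose 2.75-fold and Vcam1, a cell surface ligand, 2.05-fold, and Ccn2 (CTGF), a matricellular protein, fell 1.72-fold (adjusted p = 0.0407, 0.0463 and 0.0355). In Thbs2, Vcam1 and Col3a1, 87.0%, 82.2% and 74.9% of exonic bases belong to a single transcript. The part in their values of the library differences given above with Itga1 was not tested. Results of the alternative fits are given only for members. Neither list was tested as a set, and both were chosen with earlier results of these data known.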

How the data were processed

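Reads of the stranded total RNA libraries were checked with FastQC 0.12.1, trimmed with Trimmomatic and aligned to GRCm39 with STAR 2.7.11b, per the labels, and the authors deposited RSEM 1.3.1 expected counts, without normalization, and TPM, which RSEM scales for length and depth. Whether the counting used strand is not given in the sources used here. A table of all libraries that repeats these counts was not used.

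Expected counts were rounded, libraries 5(1) and 5(2) of control mouse 5 were summed, and genes were kept by filterByExpr (minimum count 10, total 15), leaving 15034. One edgeR 4.0.16 quasi-likelihood fit (R 4.3.3) with TMM factors covered 4 groups of 3 mice, without a block, and p-values of each of 6 comparisons were adjusted by Benjamini-Hochberg over all genes. SE is the absolute log2 fold change over the root of F. CPM use TMM factors, and TPM were used to set levels of genes beside each other. Total counts of 22782536 to 31278750 per library set the precision, and control mouse 5 had the counts of 2 libraries, 30522705 and 24493787. Libraries of a group differed beyond counting error (chi-square per gene 11.1 to 262).

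The labels give the same mouse numbers in every group, which pairs the samples by animal. The p-values given are nevertheless from the fit without the block, as in the design chosen for the main test. Blocked values are given only for Itga3, Itgb3 and Lims2, which no longer passed in senescent MEFs. The block also added Itga6 at 300 μg/mL against senescent MEFs. Against control MEFs it added Ptk2 and dropped Itgb8 at 100 μg/mL, and dropped Itgb3 at 300 μg/mL. Deviations from the group means of same-numbered samples correlated at −0.0372 in the median of 18 pairs (range −0.329 to 0.601), and 8 exceeded 0.1.

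The members and lists were chosen with earlier results of these data known. Members with an adjusted p under 0.05 in senescent against control or in either dose against senescent MEFs were named with the value of each mouse, and Itgb1, Itgav, Tln1, Vcl, Ptk2 and Ilk whatever their values. Of the other lists, up to 3 genes a direction with the largest fold among those called and at a mean of 1 CPM or more were named. Promoter windows came from RefSeq, gene positions from GENCODE on GRCm39, and 56310 of 57010 listed genes were matched to it. Alternatives were RLE factors, DESeq2 1.42.0, no filter, fits of 2 groups, other uses of the 2 control libraries, the mouse block, offsets for single-transcript sequence, each mouse left out, a fold threshold and, added after seeing the data, limma 3.58.1 on log2(TPM + 0.5) and the block with the offsets. On simulated counts with 100 genes changed at each fold, 8 and 66 were recovered at log2 fold changes of 1 and 2 for senescent against control (13700 genes), and 20 and 73 for 100 μg/mL against senescent (14303 genes). In the data 1765 and 605 genes passed in these comparisons. With fewer genes changed the adjustment is stricter, so the recovery in the simulation may be lower than in the data.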

Additional observations from a re-analysis of the deposited data

How the results depend on the processing

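Over 18 alternatives to each of the 20 calls of members in the 3 main comparisons, 282 of 360 results kept their direction and passed, 78 kept their direction without passing, and 0 changed direction. Itga7, Itga11 and Itgb5 in senescent MEFs, Itga5 and Itga11 with 100 μg/mL and Itga5 with 300 μg/mL passed in all 18. In a fit of only the 2 groups compared, 3 members passed in senescent MEFs, 2 with 100 μg/mL and 2 with 300 μg/mL, from 6 samples each. Of all genes, 730, 167 and 103 passed in these fits, against 1765, 605 and 286 in the main fit. The block by mouse, paired by animal, left 4 in senescent MEFs (1522 of all genes), and moved no other member count by over 1.5 times. DESeq2 called 9 with 300 μg/mL, adding Itga6, Actn4, Bcar1 and Src, and called 935 of all genes there. On log2 TPM as deposited, chosen after seeing the data, 4 passed in senescent MEFs (1691 of all genes) and 5 with 100 μg/mL (429). With the median gene set to 0, 4 passed in senescent MEFs (1656 of all genes). With the further threshold of a log2 fold change over 1, 3 remained with 100 μg/mL (2.69% of all genes) and 11 with 100 μg/mL against control (19.7%). With each mouse left out in turn, 4 to 10 members passed in senescent MEFs, 3 to 8 with 100 μg/mL and 1 to 6 with 300 μg/mL. In senescent MEFs 10 passed without senescent mouse 6 (2712 of all genes). There 4 passed without control mouse 5, control mouse 6 or senescent mouse 4 (1350, 1772 and 1364 of all genes). With 100 μg/mL 3 passed without mouse 4 or mouse 5 of that dose (148 and 166 of all genes). At this dose 5 passed without senescent mouse 5 (280 of all genes). With 300 μg/mL 1 passed without mouse 6 of that dose (45 of all genes) and 2 without mouse 5 (123). The cause was not tested. With 3 mice a group, the simulation recovered few changes of a log2 fold of 1, though with fewer genes changed than passed in the data. Members that did not pass may still differ.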
